A study of Mus musculus with 20 samples.

Results

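Transcripts of 6 genes that buffer, sense and move zinc were followed in colonic intestinal epithelial cells (IECs) of mice under social stress. The genes are *Mt1*, *Mt2*, *Mt3*, *Mtf1*, *Slc30a1* and *Slc39a4*, which were chosen by name, and each of the 6 had a row among the 15876 genes counted. Con mice (n = 10) were left in their home cages, and Str mice (n = 10) had an aggressive retired breeder placed in the cage with the 3 residents for 2 h/d over 6 d. All were adult male C57BL/6NCrl mice, aged 6 to 8 weeks with no other allele or agent in the labels, and cells were taken 12 to 15 h after the last exposure. IECs were held on magnetic beads as EpCAM+ CD45- cells, and 1 ribosomal RNA-depleted, directional RNA library was made per mouse. What limits the design is that cages are not given for the libraries, so the p-values treat the mice as independent, and that each level is an average over all bead-selected cells of a colon.

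Metallothioneins are small, cysteine-rich proteins that hold zinc and copper ions and release them again, so that they act as a buffer in the cytosol. The zinc finger protein MTF1 senses free zinc, enters the nucleus and switches on the metallothionein genes and the exporter gene *Slc30a1* through short DNA motifs named metal response elements. In enterocytes ZIP4, the product of *Slc39a4*, takes zinc up at the face toward the lumen, and ZnT1, the product of *Slc30a1*, passes zinc out on the other face toward the blood. Mouse *Mt1* and *Mt2* are also switched on by glucocorticoids, the hormones that the adrenal gland releases under stress, while *Mt3* is known mainly from the brain.

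The 3 metallothionein genes lie side by side on chromosome 8 of GRCm38, all on the plus strand. In the GENCODE M21 annotation *Mt3* runs from 94152607 to 94154146, *Mt2* from 94172664 to 94173568 and *Mt1* from 94179082 to 94180327, which leaves 18517 bases between *Mt3* and *Mt2* and 5513 between *Mt2* and *Mt1*. *Mtf1* lies on chromosome 4 (124802104 to 124849800, plus strand), *Slc30a1* on chromosome 1 (191906767 to 191913247, plus strand) and *Slc39a4* on chromosome 15 (76612383 to 76617384, minus strand). The coding sequences of *Mt1* and *Mt2* are both 186 bases long and share 148 of these bases (79.6%), but the longest exact run that their transcripts have in common is 20 bases. *Mt3* has 207 coding bases, of which 135 were identical to *Mt1* over the aligned stretch (72.6%).

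The promoters of *Mt1*, *Mt2* and *Slc30a1* are shown because MTF1 is known to act on these genes, whose levels are compared across mice below. Each window holds 250 bases before and 50 bases after the transcription start, taken from RefSeq (GRCm38.p6, plus strand of the genome, which is also the strand of these genes), and capitals mark the core letters of the metal response element. The letters searched were TGCACNC and TGCGCNC on both strands, so a match on the other strand reads in reverse complement. The windows are chr8:94178839-94179138 for *Mt1*, chr8:94172368-94172667 for *Mt2* and chr1:191906531-191906830 for *Slc30a1*. The starts in RefSeq differ from the gene starts in GENCODE M21 given above. By GENCODE M21 *Mt2* begins at 94172664, so nearly all of its window lies before that start.
Mt1: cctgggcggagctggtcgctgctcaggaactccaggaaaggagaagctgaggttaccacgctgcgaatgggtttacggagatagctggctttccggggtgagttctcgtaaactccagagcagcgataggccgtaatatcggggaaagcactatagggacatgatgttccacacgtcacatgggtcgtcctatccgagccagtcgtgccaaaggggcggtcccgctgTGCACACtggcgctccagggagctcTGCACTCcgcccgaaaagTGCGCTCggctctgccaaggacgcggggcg
Mt2: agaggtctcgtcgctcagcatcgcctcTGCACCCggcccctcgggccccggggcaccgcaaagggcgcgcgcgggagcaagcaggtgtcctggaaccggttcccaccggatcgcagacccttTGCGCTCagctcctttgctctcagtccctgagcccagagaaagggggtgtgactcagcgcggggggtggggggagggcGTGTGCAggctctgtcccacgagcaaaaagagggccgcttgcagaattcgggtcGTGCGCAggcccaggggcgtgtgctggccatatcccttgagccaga
Slc30a1: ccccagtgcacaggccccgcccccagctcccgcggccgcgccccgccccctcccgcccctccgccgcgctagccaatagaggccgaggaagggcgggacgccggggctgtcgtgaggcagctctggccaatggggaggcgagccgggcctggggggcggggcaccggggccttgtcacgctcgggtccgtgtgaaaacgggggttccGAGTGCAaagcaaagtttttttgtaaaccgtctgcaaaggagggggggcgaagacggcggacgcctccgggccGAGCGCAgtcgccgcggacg
The window of *Mt1* held 3 matches, that of *Mt2* held 4 and that of *Slc30a1* held 2. *Mt3* had 1 match and *Mtf1* had 0 in the same letters, and *Slc39a4* was not searched. Of the 32851 promoter windows of this length in the RefSeq table, 25.7% held at least 1 match, 7.11% at least 2, 1.97% at least 3 and 0.517% at least 4. A match describes the letters only, since binding was not measured.

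Library totals lay between 20034127 and 26141352 counts in Con and between 20390091 and 24508215 in Str. Levels are CPM (the count of a gene scaled to a common library total), after TMM scaling, a method that sets the bulk of genes equal between libraries, and are given as mean ± SD over 10 mice. All 14 epithelial markers examined had a row, and their levels summed to between 23101 and 30130 CPM in Con and between 24643 and 28041 CPM in Str. Of these 14, 2 were called higher in Str by edgeR at an adjusted p under 0.05, *Krt20* (log2 fold change 0.33) and *Slc26a3* (0.44). Another 2 were called lower, *Car1* (-0.78) and *Car2* (-0.22), beside 8.94% of all genes called higher and 7.72% called lower. In a library's name the first letter, C or S, gives the group, and the second, V or L, has a meaning that the sources do not give, with 5 V and 5 L libraries per group. The albumin gene *Alb*, a liver transcript, was at 69.3 to 79.9 CPM in 4 Con libraries (CV3, CV4, CV6 and CL1). It was at 1.64 to 3.19 CPM in the other 16. These 4 are named below as the libraries with liver transcripts, and results that rest on them are also given without them. Of 22 liver markers 7 had a row, with 4 called lower in Str, beside 7.72% of all genes, and 1 without the 4 libraries. Without these libraries 0 epithelial markers were called higher and 1, *Car1*, was called lower. Of 14 leukocyte markers 4 had a row, with 2 called higher in Str, beside 8.94% of all genes, and 1 without the 4 libraries. The summed level of the measured leukocyte markers was 22.5 to 43.9 CPM in Con against 36.1 to 130 CPM in Str. Most of it came from *Ly6g* (28.9 ± 7.51 and 75.9 ± 28.6 CPM, SD, n = 10 each). *Ptprc*, which encodes CD45, was at most 2.17 CPM with a log2 fold change of -0.37, and *Itgam* had one of -0.16, neither of them called, while *Cd68* was called higher at 0.56 (adjusted p = 0.00660). Without the 4 libraries *Cd68* was at 0.49 (adjusted p = 0.0655) and was not called.

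Set against transcript length, *Mt1* and *Mt2* were the most abundant of the 6 transcripts on average and *Mt3* the least. In Con, *Mt1* was at 301 ± 91.6 CPM per kilobase of transcript, *Mt2* at 111 ± 56.2, *Slc39a4* at 59.3 ± 9.67, *Slc30a1* at 20.2 ± 1.91, *Mtf1* at 6.17 ± 0.931 and *Mt3* at 1.38 ± 0.441 (SD, n = 10). In Str the same order held, with *Mt1* at 310 ± 64.7 and *Mt2* at 116 ± 37.5 CPM per kilobase. *Mt1* exceeded *Mt2* in 20 of 20 libraries. *Mt2* exceeded *Slc39a4* in 17 of 20, so these neighbors in the order overlapped, whereas the other neighbors kept their order in 20 of 20 libraries.

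**Figure D1:**
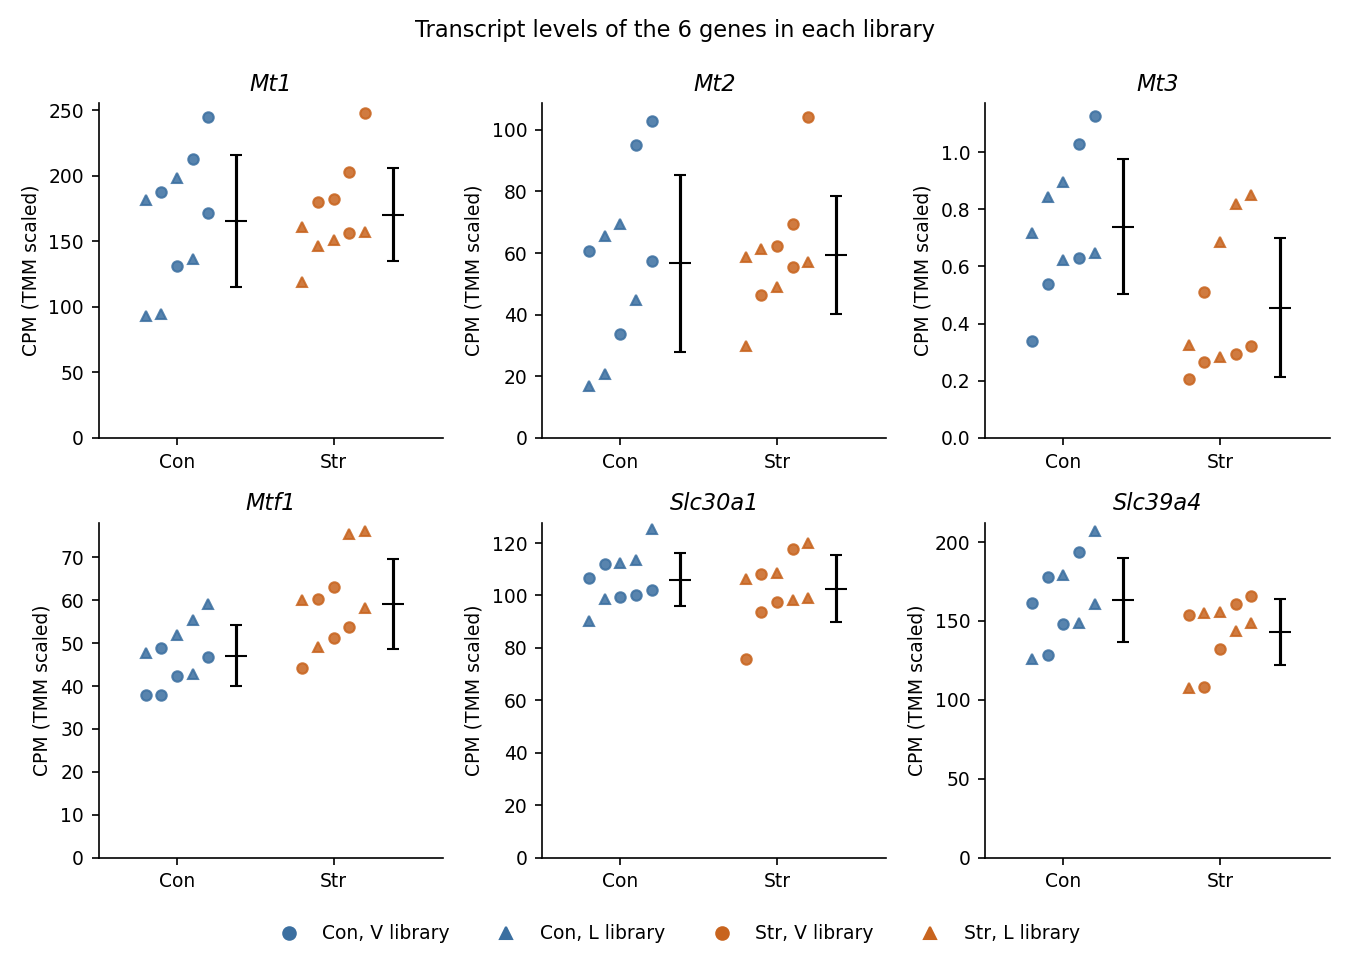
Transcript levels (CPM, vertical axis) of the 6 genes in each library of Con (blue) and Str (orange), with circles for V and triangles for L libraries and black bars for the mean ± SD of 10 mice. *Mtf1* sits higher in Str, where 5 libraries lie above the highest Con library, while *Mt1* and *Mt2* spread widely in both groups.

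Of the 6 genes, 1 was called between Str and Con, and it was the regulator. By edgeR's quasi-likelihood test at a Benjamini-Hochberg adjusted p under 0.05, 16.7% of all 15876 genes were called, 8.94% as higher in Str and 7.72% as lower, so 1 of 6 is close to this background. *Mtf1* was the gene called higher, and 0 of the 6 were called lower at the adjusted threshold, although *Mt3* was lower at an unadjusted p of 0.0134. The tests of the 6 genes were adjusted over all genes.

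*Mtf1*, which encodes the zinc-sensing activator, rose in Str. In Con its level was 37.9 CPM in the lowest library (CV6), 47.2 in the median and 59.2 in the highest (CL4). In Str it was 44.3 CPM in the lowest (SV5), 59.1 in the median and 76.1 in the highest (SL2). The groups overlapped, with 5 Str libraries above every Con library and 9 above the Con median. The means were 47.1 ± 7.10 and 59.1 ± 10.4 CPM (SD, n = 10 each), a log2 fold change of 0.33 (SE 0.10, 95% confidence interval 0.13 to 0.53, adjusted p = 0.0213). The call held when any 1 of the 20 libraries was left out (largest adjusted p 0.0457), but not without the 4 Con libraries with liver transcripts, where the log2 fold change was 0.29 and the adjusted p 0.101. The far end of *Mtf1* overlaps an antisense gene, *1110065P20Rik*, at 2.48 CPM, and the strand setting of the counting is not given in the sources used here.

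*Mtf1* was higher on average in Str among V libraries and among L libraries. Among V libraries *Mtf1* was at 42.8 ± 5.01 CPM in Con and 54.5 ± 7.46 CPM in Str (SD, n = 5), a log2 fold change of 0.35 with an adjusted p of 0.0410 from edgeR. Among L libraries it was at 51.4 ± 6.46 and 63.8 ± 11.7 CPM (SD, n = 5), a log2 fold change of 0.31 with an adjusted p of 0.226. The 2 fold changes differed by -0.04 (L minus V, SE 0.17, adjusted p = 0.985 for the interaction in edgeR).

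*Mt1*, the more abundant metallothionein, was not called between Str and Con. Its level in Con was 93.0 CPM in the lowest library (CL1), 177 in the median and 245 in the highest (CV3). In Str it was 119 CPM in the lowest (SL2), 159 in the median and 248 in the highest (SV5). The groups overlapped over nearly the whole range, and 2 Con libraries lay below every Str library. The means of 165 ± 50.3 and 170 ± 35.5 CPM (SD, n = 10 each) gave a log2 fold change of 0.04 (SE 0.16, 95% confidence interval -0.28 to 0.37, adjusted p = 0.882).

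*Mt2*, whose product has the same metal-binding role, showed the same picture with a wider spread. In Con its level was 17.0 CPM in the lowest library (CL1), 59.0 in the median and 103 in the highest (CV3), a 6.06-fold range among unstressed mice. In Str it was 29.9 CPM in the lowest (SL2), 57.9 in the median and 104 in the highest (SV5), a 3.48-fold range. These are the same libraries that held the lowest and highest *Mt1* in each group. The means of 56.7 ± 28.7 and 59.4 ± 19.2 CPM (SD, n = 10 each) gave a log2 fold change of 0.07 (SE 0.26, 95% confidence interval -0.47 to 0.61, adjusted p = 0.890). For both genes the sign of the difference turned when CL1, CL2 or SV5 was left out. Without the 4 libraries with liver transcripts the log2 fold change was 0.30 for *Mt2* (adjusted p = 0.486) and 0.16 for *Mt1* (adjusted p = 0.544), and in limma-voom it was 0.33 (adjusted p = 0.431) and 0.15 (adjusted p = 0.533).

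With the counts of both genes summed, metallothionein transcript came to 222 ± 78.6 CPM in Con and to 230 ± 53.9 CPM in Str (SD, n = 10 each). The sum ran from 110 (CL1) over a median of 238 to 348 CPM (CV3) in Con, and from 149 (SL2) over a median of 219 to 352 CPM (SV5) in Str. On the log2 scale the means differed by 0.11, with p = 0.598 in a two-sided permutation test (100000 permutations). The 4 libraries with liver transcripts held 348 (CV3), 308 (CV4), 248 (CV6) and 110 CPM (CL1), which spans the whole Con range. Without them the difference was 0.22 with p = 0.293 by exact permutation.

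The 3 metallothioneins had the widest spread of the 6 genes between mice of the same group. The SD of log2 CPM within groups was 0.39 for *Mt1* and 0.69 for *Mt2*, against a median of 0.16 over the 13516 genes with a mean of at least 1 CPM, of which 91.1% and 99.2% varied less. For *Slc30a1* this SD was 0.16, for *Slc39a4* 0.23 and for *Mtf1* 0.23. *Mt3*, at a mean under 1 CPM, had an SD of 0.53, in which counting error takes a larger part. Counting error was 1.61% of the mean of *Mt1* and 2.75% of that of *Mt2* in Con, where the SD between mice was 30.4% and 50.7% of the mean. Counting error was thus the smaller part of the spread of these 2 genes.

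The neighboring genes *Mt1* and *Mt2* rose and fell together across mice. Over the 10 Con libraries their log2 levels had a Pearson r of 0.99 (permutation p = 1e-05, the smallest that 100000 permutations can give, adjusted p = 0.0002 over 20 relations) and a Spearman rho of 0.99 (permutation p = 1e-05, adjusted p = 0.0002). Without the 2 libraries farthest from the median, CL1 and CL2, r was 0.97, with letter means subtracted 0.98, and without the 4 libraries with liver transcripts 0.99. Over the 10 Str libraries r was 0.93 (permutation p = 0.00073, adjusted p = 0.0073) and rho 0.83 (permutation p = 0.00439, adjusted p = 0.0439). Within Str the relation leaned on SL2 and SV5, without which r was 0.69 (exact permutation p = 0.0618), while with letter means subtracted it was 0.98. *Mt2* varied over a wider range than *Mt1*, so its share of their summed counts moved from 15.4% in CL1 to 30.9% in CV4 in Con, and from 20.1% in SL2 to 29.6% in SV5 in Str.

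**Figure D2:**
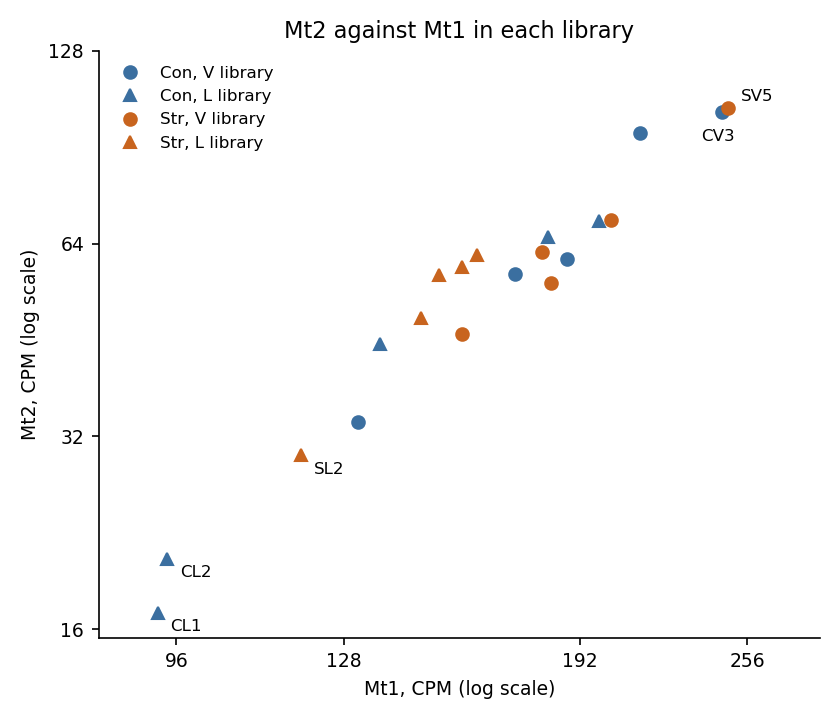
*Mt2* against *Mt1* in each library (CPM, both axes on a log scale), with Con in blue, Str in orange, circles for V and triangles for L libraries. The points fall along a narrow band from CL1 (93.0 and 17.0 CPM) to SV5 (248 and 104 CPM), and the groups are mixed along it.

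Of the 20 relations computed among *Mt1*, *Mt2*, *Slc30a1*, *Slc39a4* and *Mtf1* within Con and within Str, 3 passed the adjusted threshold by Pearson's r. The third, after the relation of *Mt1* with *Mt2* in each group, joined *Mt2* and *Mtf1* in Str, with r = -0.79 (permutation p = 0.00618, adjusted p = 0.0412) and rho = -0.67 (permutation p = 0.0396, adjusted p = 0.264). It leaned on SL2 and SV5, without which r was -0.43 (exact permutation p = 0.295). With letter means subtracted r was -0.73 (permutation p = 0.0151). Within Con the same relation had r = -0.49 (permutation p = 0.148, adjusted p = 0.394) and rho = -0.32 (permutation p = 0.366, adjusted p = 0.610). For *Mt1* and *Slc30a1*, which share the regulator MTF1, r was 0.23 in Con (permutation p = 0.519, adjusted p = 0.798) and -0.09 in Str (permutation p = 0.793, adjusted p = 0.914). The value in Con depended on the libraries kept. It was 0.73 without the 4 libraries with liver transcripts (unadjusted exact permutation p = 0.0944). With CL1 and CL2 left out instead, it was 0.08 (unadjusted exact permutation p = 0.847). For *Mt2* and *Slc30a1* in Con, r was 0.20, and 0.74 without the 4 libraries (unadjusted exact permutation p = 0.0806).

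*Mt1* and *Mt2* were lower on average in L than in V libraries, though not past the threshold. *Mt1* was at 190 ± 42.9 CPM in V and 141 ± 48.6 CPM in L libraries of Con, and at 194 ± 34.2 and 147 ± 16.5 CPM in those of Str (SD, n = 5 each). With the group as a term, L differed from V by -0.42 on the log2 scale for *Mt1* (SE 0.13, adjusted p = 0.0663 in edgeR) and by -0.54 for *Mt2* (SE 0.24, adjusted p = 0.177). *Mtf1*, with 0.25 (SE 0.08, adjusted p = 0.0822), and *Mt3*, with 0.37 (SE 0.25, adjusted p = 0.384), had the opposite sign. In this comparison 776 of all genes (4.89%) were called. The effect of Str itself did not pass a test of a difference between L and V for any of the 6 genes (adjusted p 0.873 to 0.993, interaction in edgeR).

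*Mt3*, the brain metallothionein, was at the edge of detection, with 5 to 28 counts per library. In Con it lay at 0.338 CPM in the lowest library (CV3), 0.682 in the median and 1.13 in the highest (CV6), and in Str at 0.206 (SV5), 0.324 and 0.851 CPM (SL6). Of the 10 Str libraries 6 lay below every Con library, and the other 4 lay within the Con range. The means were 0.738 ± 0.236 and 0.456 ± 0.244 CPM (SD, n = 10 each), a log2 fold change of -0.69 (SE 0.26, 95% confidence interval -1.23 to -0.16, unadjusted p = 0.0134, adjusted p = 0.0685). The log2 fold change was -1.19 in the V libraries (adjusted p = 0.0521) and -0.31 in the L libraries (adjusted p = 0.642), and the difference between these did not pass the interaction test (0.88, SE 0.48, unadjusted p = 0.0844, adjusted p = 0.873). The call depended on the tool, with an adjusted p of 0.0200 in limma-voom and 0.0593 in DESeq2. Counting error alone came to 24% of the mean in Con and 31.3% in Str, beside SDs between mice of 32% and 53.4%.

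Markers of neurons and glia are given beside *Mt3*. Of the 8 markers examined 6 had a row, and their levels summed to 8.66 to 13.7 CPM in Con, against 5.39 to 12.2 CPM in Str, with *Syt1* at 0 in at least 1 library and a median log2 fold change of -0.16. Their part in the difference of *Mt3* was not tested. In such bulk libraries fewer cells of a type and less RNA per cell cannot be told apart.

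*Slc30a1*, the zinc exporter toward the blood, had the steadiest level of the 6 genes. In Con it was 90.3 CPM in the lowest library (CL2), 104 in the median and 125 in the highest (CL4), and in Str 75.7 (SV4), 103 and 120 CPM (SL5). All but 1 Str library lay within the Con range. The means were 106 ± 9.99 and 103 ± 12.8 CPM (SD, n = 10 each), a log2 fold change of -0.05 (SE 0.07, 95% confidence interval -0.19 to 0.09, adjusted p = 0.681). An antisense gene that overlaps it, *1700034H15Rik*, was at 2.35 CPM.

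*Slc39a4*, which encodes the luminal zinc importer ZIP4, was lower on average in Str but not past the threshold. In Con it was 126 CPM in the lowest library (CL6), 161 in the median and 207 in the highest (CL3), and in Str 107 (SL6), 151 and 166 CPM (SV5). Of the 10 Str libraries 9 lay below the Con median, and 4 Con libraries lay above every Str library. The means were 163 ± 26.6 and 143 ± 20.8 CPM (SD, n = 10 each), a log2 fold change of -0.19 (SE 0.09, 95% confidence interval -0.38 to 0.00, unadjusted p = 0.0545, adjusted p = 0.174). The difference was -0.17 in V and -0.21 in L libraries.

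In the wider families of zinc transporters 4 genes were called, 1 higher and 3 lower in Str. ZnT proteins (Slc30) lower the zinc of the cytosol by moving it out of the cell or into organelles, and ZIP proteins (Slc39) raise it. Of 10 Slc30 genes 7 had a row, of which 0 were called higher and 2 lower, with a median log2 fold change of -0.05 against 0.00 over all genes, where 8.94% of all genes were called higher and 7.72% lower. At an unadjusted p under 0.05 the counts were 1 higher and 2 lower, and both DESeq2 and limma-voom called 1 higher. Of 14 Slc39 genes 11 had a row, of which 1 was called higher and 1 lower, with a median of -0.08. The count over both families is close to the 16.7% called among all genes.

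*Slc30a4*, which encodes a transporter that loads zinc into vesicles, fell in Str. It was at 150 to 185 CPM in Con (median 170) and at 131 to 159 CPM in Str (median 148), and 7 Str libraries lay below every Con library. The log2 fold change was -0.20 (adjusted p = 0.00133, SE 0.04), with -0.24 (adjusted p = 0.00335) without the 4 libraries with liver transcripts. *Slc30a10*, whose product mainly exports manganese, fell by 1.08 on the log2 scale (SE 0.30, adjusted p = 0.0166). It ranged from 25.8 to 83.8 CPM in Con (median 53.4) and from 6.00 to 66.6 CPM in Str (median 18.7), with 8 Str libraries below every Con library. Without the 4 libraries with liver transcripts its log2 fold change was -1.16 and the adjusted p 0.0501. *Slc30a7*, a Golgi zinc transporter, had a log2 fold change of 0.12 (adjusted p = 0.0592, SE 0.04), and *Slc30a9* one of -0.04 (adjusted p = 0.455).

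Among importers *Slc39a1*, which encodes a zinc importer of the cell surface, was higher in Str. It was at 86.6 to 102 CPM in Con (median 95.8) and at 94.98 to 125 CPM in Str (median 109), and 7 Str libraries lay above every Con library. Its log2 fold change was 0.18 (adjusted p = 0.00838, SE 0.04), and without the 4 libraries with liver transcripts it was 0.16 (adjusted p = 0.0530). *Slc39a8*, whose product carries zinc and manganese into cells, was lower. It was at 32.7 to 42.2 CPM in Con (median 37.9) and at 29.5 to 39.4 CPM in Str (median 33.8), and its log2 fold change of -0.17 had an SE of 0.05 and an adjusted p of 0.0254. Without the 4 libraries it was -0.14 (adjusted p = 0.135), and leaving out CV6 alone gave an adjusted p of 0.0510. The abundant importer genes *Slc39a9*, at a log2 fold change of 0.09 (adjusted p = 0.229), and *Slc39a5*, at -0.12 (adjusted p = 0.196), were not called.

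**Figure D3:**
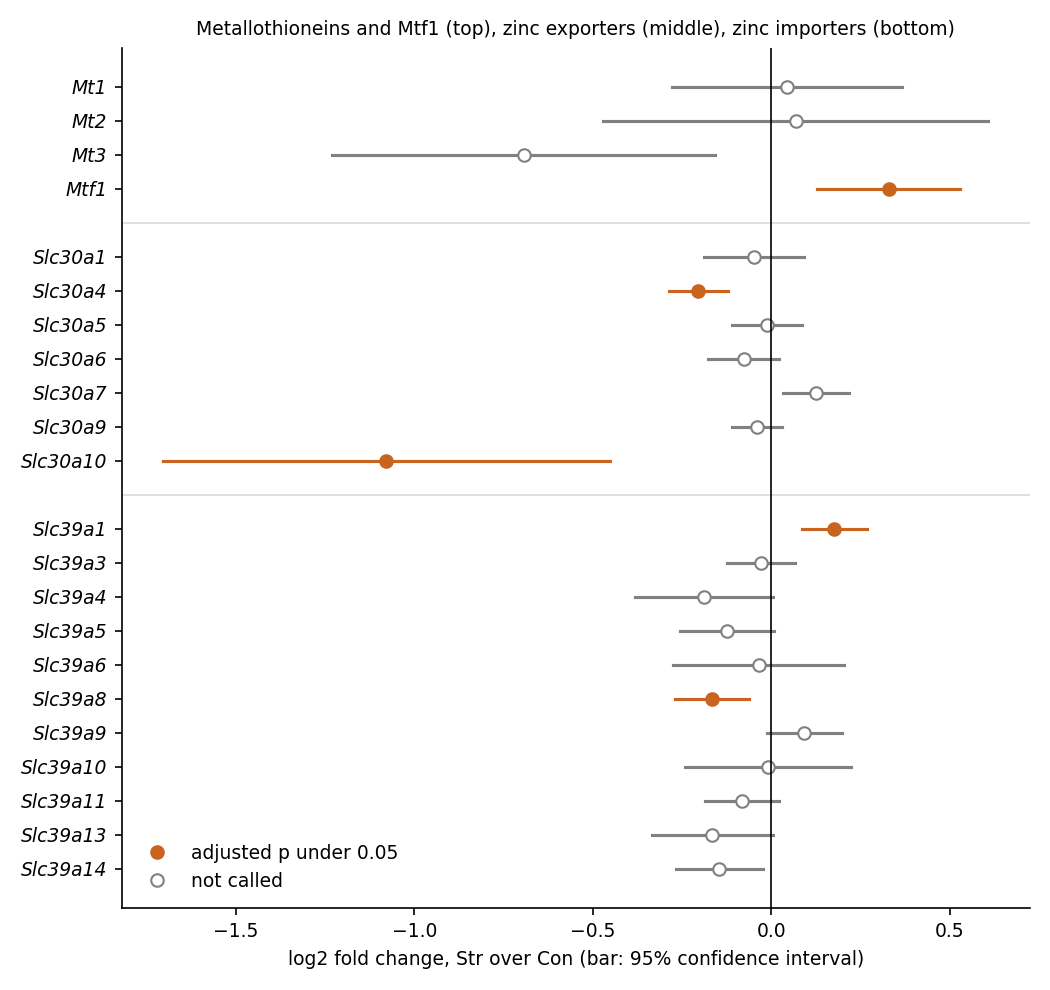
Log2 fold change (Str over Con, horizontal axis) with its 95% confidence interval for the metallothioneins and *Mtf1*, the 7 measured Slc30 genes and the 11 measured Slc39 genes. Filled orange points mark an adjusted p under 0.05, namely *Mtf1* (0.33), *Slc30a4* (-0.20), *Slc30a10* (-1.08), *Slc39a1* (0.18) and *Slc39a8* (-0.17), and the intervals of *Mt1* and *Mt2* span 0.

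The list of MTF1 targets holds 6 genes, *Mt1*, *Mt2* and *Slc30a1* among them, and pools induced targets with *Slc39a10*, which MTF1 holds down. Of the 6, 0 were called higher by edgeR, DESeq2 or limma-voom, and 0 were higher at an unadjusted p under 0.05, which in a list of this size is near the 8.94% of all genes called higher. The 1 called lower was *Gclc*, which encodes a subunit of the enzyme that begins glutathione synthesis and answers to other regulators as well, at 190 ± 28.4 CPM in Con and 147 ± 16.5 CPM in Str (SD, n = 10 each), with a log2 fold change of -0.37 (adjusted p = 0.00276, SE 0.08). The median of the list was -0.01.

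Genes that glucocorticoids induce were called in both directions. Of 15 listed genes, which include *Mt1* and *Mt2*, 14 had a row, and 1 was called higher and 3 lower, beside 8.94% and 7.72% of all genes, with a median log2 fold change of 0.06. *Tat*, a classic hormone-induced enzyme of tyrosine breakdown, rose from 35.6 ± 5.35 CPM to 86.2 ± 24.6 CPM (SD, n = 10 each), by 1.28 on the log2 scale (SE 0.14, adjusted p = 1.05e-05). *Tsc22d3*, which encodes the hormone-induced leucine zipper protein GILZ, fell by 0.34 (adjusted p = 0.00202), and *Pck1*, an enzyme of glucose synthesis, by 0.66 (adjusted p = 0.00172). *Sgk1*, a kinase that raises sodium uptake, was lower by a log2 fold change of -0.38 (adjusted p = 0.0476), and without the 4 libraries with liver transcripts it had a log2 fold change of -0.45 with an adjusted p of 0.0707.

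Among genes for copper and iron, metals that metallothioneins and some zinc transporters can also bind or carry, 22 of 24 had a row, and 2 were called higher and 1 lower, with a median of -0.03, a share near or below the 16.7% of all genes called. *Atp7a*, the copper exporter, had a log2 fold change of 0.23 (adjusted p = 0.0155, SE 0.06). *Tfrc*, the transferrin receptor that brings iron into cells, was at 316 ± 36.6 CPM in Con and 430 ± 136 CPM in Str (SD, n = 10 each), a log2 fold change of 0.45 (adjusted p = 0.0288, SE 0.14). *Sod1*, the superoxide dismutase that carries copper and zinc, fell by 0.22 (SE 0.07, adjusted p = 0.0220), and *Ccs*, its copper chaperone, had a log2 fold change of -0.19 (adjusted p = 0.0557). Without the 4 libraries with liver transcripts the log2 fold changes were 0.20 for *Atp7a* (adjusted p = 0.0986), 0.42 for *Tfrc* (adjusted p = 0.133) and -0.21 for *Sod1* (adjusted p = 0.0846), about the same sizes but past no threshold.

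Levels of other genes were ranked by their likeness to the summed level of *Mt1* and *Mt2*, as Pearson's r of log2 CPM over the 20 libraries after subtraction of the group means, among 13511 genes with a mean of at least 1 CPM. The values are a description, as the points share library depth and letter and the genes were picked from the ends of the ranking. The 5 most alike were *Fhit* (r = 0.80), *Tbl1x* (0.79), *Pak2* (0.77), *Actr8* (0.77) and *Pck2* (0.76). Without CL1 and CL2, which lay farthest out, r over 18 libraries was 0.61 for *Fhit*, 0.74 for *Tbl1x* and *Pak2*, 0.54 for *Actr8* and 0.65 for *Pck2*. Without the 4 libraries with liver transcripts r was 0.79 for *Fhit*, 0.75 for *Tbl1x* and 0.83 for *Pak2*. For *Actr8* it was then 0.65 and for *Pck2* 0.57. None of these 5 was called between Str and Con (adjusted p 0.106 to 0.910).

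At the other end of the ranking, looked at after the values were seen, stood *Per2*, a repressor of the circadian clock. Its r with the summed level was -0.87 (rho -0.77), with -0.88 within Con and -0.86 within Str, -0.72 without CL1 and CL2, and -0.85 with letter means subtracted. Without the 4 libraries with liver transcripts, CV3 and CL1 among them, its r was -0.78. *Per2* ran from 20.3 CPM in CV3, the Con library with the most metallothionein transcript, to 79.9 CPM in CL1, the one with the least, and from 22.2 CPM in SV5 to 47.2 CPM in SL2 in Str. *Nr1d1*, which encodes the clock repressor REV-ERB alpha, stood at place 6 from the top with r = 0.76, from 71.2 CPM in CL1 to 272 CPM in SV5. Without the 4 libraries with liver transcripts the r of *Nr1d1* was 0.77. In each group the library with the least metallothionein transcript held the most *Per2* transcript, and the reverse.

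Of the zinc transporters, *Slc39a10* was the one most unlike the metallothioneins. It encodes a zinc importer that MTF1 is known to hold down in mice and zebrafish, and it stood near the bottom of the ranking, at place 4, with r = -0.77 (rho -0.80), -0.86 within Con and -0.59 within Str. Without CL1 and CL2 r was -0.61, and without the 4 libraries with liver transcripts it was -0.77. Its level ran from 8.02 (CL4) to 15.99 CPM (CL2) in Con and from 8.93 (SV2) to 14.4 CPM (SL6) in Str, with a log2 fold change of -0.01 (adjusted p = 0.968, SE 0.11). *Mtf1* itself had r = -0.58 with the summed level over the 20 libraries, *Slc39a4* -0.26 and *Slc30a1* 0.09.

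**Figure D4:**
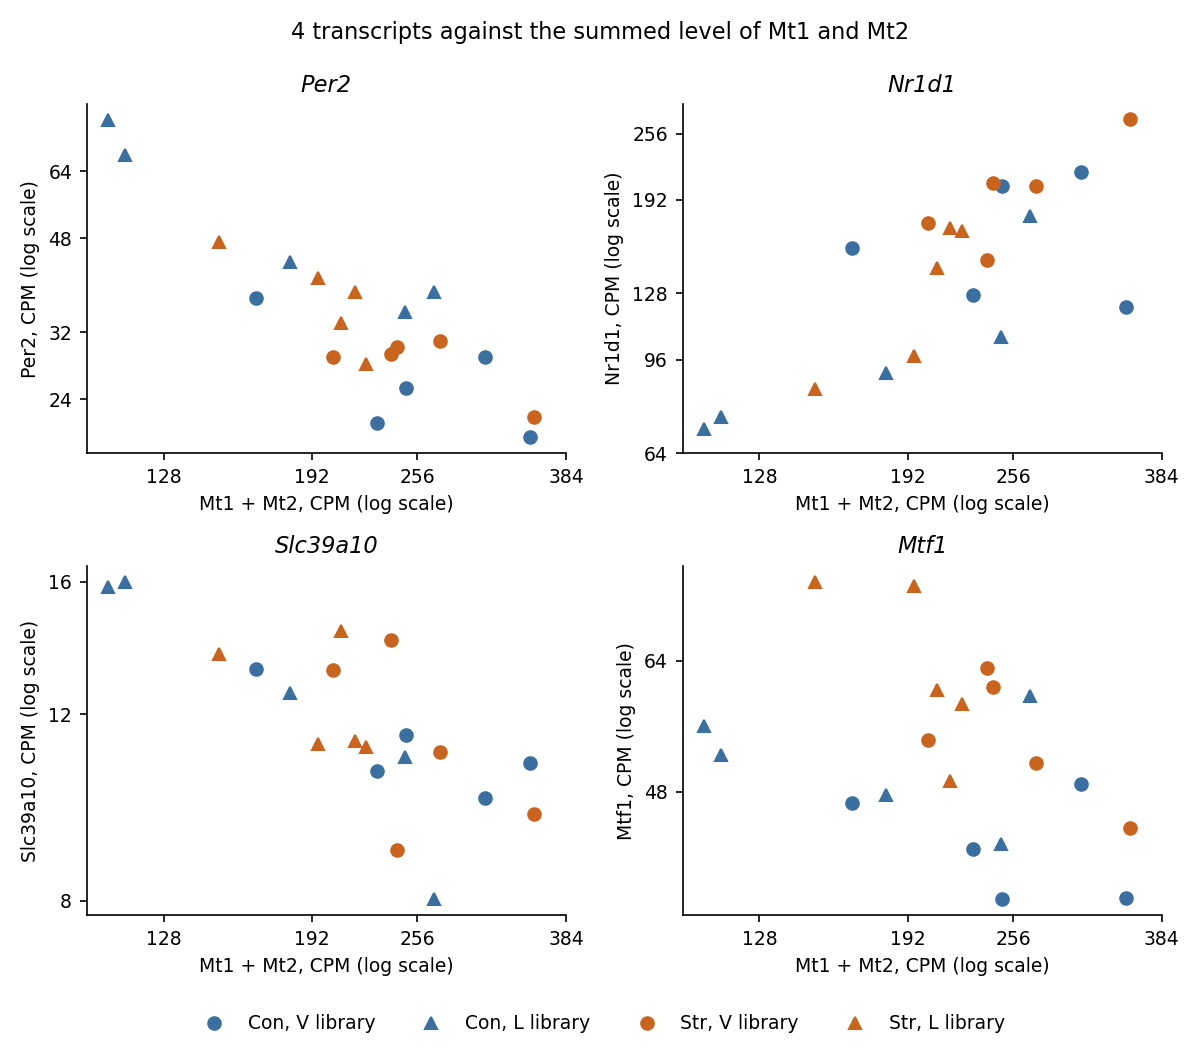
*Per2*, *Nr1d1*, *Slc39a10* and *Mtf1* (CPM, vertical axes, log scale) against the summed level of *Mt1* and *Mt2* (CPM, horizontal axes, log scale) in the 20 libraries, with Con in blue, Str in orange, circles for V and triangles for L. *Per2* falls from CL1 at the left (79.9 CPM) to CV3 at the right (20.3 CPM), and Con and Str points lie along the same band, while for *Mtf1* the Str points lie mostly above the Con points.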

How the data were processed

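Bulk RNA-seq libraries of IECs, 10 Con and 10 Str, were analysed, and the paper's other assays were left out. The authors aligned paired-end reads to GRCm38.p4 using STAR, then used HTSeq to obtain counts per gene, which were deposited as whole numbers without scaling and are the values used. The table's other 20 sample columns hold scaled forms of these counts and were left out. Libraries were grouped by the first letter of the column name, C or S, and the names were not tied to single mice of the labels. Totals of 20034127 to 26141352 counts leave a counting error of a few percent of the mean for each of the 6 genes but *Mt3*.

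For Str against Con the quasi-likelihood test of edgeR 4.0.16 (R 4.3.3) was run with TMM normalization on genes with a mean count of at least 4 (0 genes were removed), and p-values were adjusted by Benjamini-Hochberg over the whole table. A prior count of 2 was added for log2 CPM. Alternatives were DESeq2 1.42.0, limma-voom (limma 3.58.1) with quality weights, no filter, the filter of edgeR, library sizes alone, RLE factors, the letter as a covariate, a replicate block, V or L libraries alone, removal of the 4 Con libraries with liver transcripts, and removal of each library in turn. Permutation tests, two-sided, used scipy 1.17.1 (Python 3.11.15) with 100000 permutations (seed 50), or all permutations below 10 libraries. The edgeR steps were tested on simulated data (seed 5). Genes were placed with GENCODE M21, and lengths per kilobase are those of the transcript with a consensus coding sequence and the most coding bases.

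Genes, lists and alternatives were chosen with earlier results of these data known. Named were all 6 genes, every called zinc transporter with up to 3 others per family by level, up to 4 genes of each other list by adjusted p, and the 5 genes most like the summed *Mt1* and *Mt2*. *Per2*, the clock genes and the low end of that ranking were chosen after their values were seen. Not every clock gene is reported here.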

Additional observations from a re-analysis of the deposited data

Results flagged for a closer look

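In Str, *Mt2* in the library SV5 was narrowly flagged as distant from its group, at 104 CPM against 69.6 CPM in the next library. The gap between them was 0.467 of the range of the group in CPM, just past the limit of 0.466. *Mt2* in Str was the 1 set flagged of 14 sets of 10 libraries examined, the 6 genes and the summed *Mt1* and *Mt2* in each group. Chance alone marks about 5% of such sets. SV5 also held the highest *Mt1* of Str (248 CPM against 203 CPM in the next), the lowest *Mtf1* (44.3 CPM) and the lowest *Mt3* (0.206 CPM). Without SV5 the log2 fold change was -0.06 for *Mt2* (adjusted p = 0.905 in edgeR) and -0.03 for *Mt1* (adjusted p = 0.913), so both changed sign.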

How the results depend on the processing

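The direction of *Mtf1* was the same in all alternatives, with a log2 fold change of 0.28 to 0.37 when 1 library was left out, and its call was lost in the L libraries alone (0.31) and without the 4 Con libraries with liver transcripts (0.29). *Mt3* was called by limma-voom (-0.83), and leaving out 1 library gave -0.84 to -0.61 with adjusted p 0.0261 to 0.130, under 0.05 without CV3, SL4, SL5 or SL6. *Mt1* was at -0.033 to 0.12 and *Mt2* at -0.061 to 0.21 with 1 library left out, the signs turning without CL1 (-0.02 and -0.04), CL2 (-0.02 and -0.03) or SV5 (-0.033 and -0.061), and *Mt2* was at -0.050 in the V libraries alone. No alternative called either of them, *Slc30a1* (-0.09 to -0.01 over all alternatives) or *Slc39a4* (-0.26 to -0.14), and the summed *Mt1* and *Mt2* differed by 0.01 to 0.19 with 1 library left out. Genes called higher and lower numbered 1420 and 1226, against 807 and 817 in V libraries alone, 9 and 2 in L libraries alone, 854 and 608 without the 4 libraries, 1031 and 1949 with library sizes alone, and 1151 to 1567 and 902 to 1605 with 1 library left out, the highest count without SL5 and the lowest without SL2. Whether the numbers of the columns pair the libraries was not settled. Over 8 same-named pairs the correlation ran from 0.0037 to 0.34, with 4 over 0.1, and 4 libraries were closest to their own partner. A replicate block on these pairs gave 1553 and 1360 genes and 0.35 for *Mtf1*. Zinc exporters called higher numbered 1 in DESeq2 and 1 in limma-voom, and 1 was called lower without the 4 libraries. Importers called numbered 0 in either direction without the 4 libraries, and 2 were called lower in limma-voom. Copper and iron genes called higher numbered 0 without the 4 libraries, and those called lower 2 in DESeq2 and 4 in limma-voom. Glucocorticoid-induced genes called higher numbered 3 in limma-voom and 2 without the 4 libraries, and those called lower 2 without the 4 libraries. Within Str, r was 0.69 for *Mt1* with *Mt2* and -0.43 for *Mt2* with *Mtf1* without SL2 and SV5. The causes of these shifts were not tested, and fewer libraries entered several of these fits.

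Depth limits *Mt3* alone among the 6 genes. The meaning of the letters V and L is not known, the cages are not given for single libraries, and levels are averages over bead-selected cells.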

Other observations

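Clock genes were looked at after *Per2* stood at the low end of the ranking, and 16 of 18 had a row. Their r with the summed level of *Mt1* and *Mt2* over the 20 libraries, after subtraction of the group means, is given as a description. *Nr1d1* had r = 0.76 (0.71 within Con, 0.89 within Str) and *Nr1d2*, its partner repressor, 0.73 (0.69 and 0.86). The repressor gene *Cry1* had -0.67 (-0.82 and -0.68), the core activator *Arntl* -0.54 (-0.69 and -0.61) and its relative *Npas2* -0.53 (-0.40 and -0.81). The other core activator, *Clock*, had -0.10, and *Per3* had 0.07. With letter means subtracted, *Nr1d1* was at 0.64, *Cry1* at -0.56 and *Arntl* at -0.38.

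Among zinc transporters *Slc39a5*, which encodes an importer of the basolateral face of enterocytes, had r = 0.62 with the summed level, 0.52 within Con and 0.85 within Str. It ran from 63.8 CPM in CL1 to 90.1 CPM in CV3, the Con libraries with the lowest and highest metallothionein levels, and from 57.5 CPM in SL2 to 80.3 CPM in SV5, the corresponding libraries of Str. Without CL1 and CL2 r was 0.49, and with letter means subtracted it was 0.43. *Slc30a7* had r = -0.52, with -0.61 within Con and -0.60 within Str, and -0.46 with letter means subtracted. *Slc39a3* had r = 0.51, with 0.67 within Con and 0.29 within Str, and 0.47 with letter means subtracted.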
